A study of Mus musculus with 12 samples.

Results

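The genes described here are 32 genes of the ATF4 response and of amino acid supply, taken in 3 roles: 12 stress factors, 10 synthesis enzymes and 10 transporters. They were chosen by name from knowledge of the pathway, with earlier results of these data known. Each was read from the probe sets annotated to that symbol alone. Of the 32, 31 had such a probe set, and 30 were bright enough to be tested, among 12629 genes tested of 18193 genes on the array. Pycr1, an enzyme of proline synthesis, had no probe set of its own. Slc7a11, the cystine transporter, had a probe set too dim to test. They were measured in mouse embryonic stem (ES) cells carrying a doxycycline-inducible transgene for Neurog1, a proneural factor of the basic helix-loop-helix family.

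The 4 groups were maintenance cultures without induction (0 h) and cells given 1 ug/ml doxycycline for 24, 48 or 72 h, with 3 arrays in each. All 4 groups shared the line, 129P2/OlaHsd (E14, Ainv15), the inducible transgene and the medium, which held serum, leukaemia inhibitory factor (a factor that sustains ES cells), and the selection drugs puromycin and G418. How many clones the line holds is not given in the sources. Uninduced cells were taken at 0 h alone, so effects of Neurog1, of doxycycline and of culture time cannot be told apart. This holds where induced cells are set against uninduced cells and where induced cells of different times are compared.

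ATF4 is a basic leucine zipper transcription factor that cells translate more when eIF2alpha is phosphorylated, as happens when amino acids run short, haem is low, viral RNA is sensed or unfolded protein gathers in the endoplasmic reticulum. Paired with C/EBP proteins, it binds composite elements near genes for amino acid synthesis and import, for tRNA charging and for stress factors that in turn restrain translation or ATF4 itself. Amino acid supply is a known concern of mouse ES cells, which grow fast and draw on serine, glycine, threonine and one-carbon metabolism.

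The composite element is commonly written as TGATGNAAN, or NTTNCATCA when read on the opposite strand. Both strands were searched in RefSeq windows of GRCm38.p6 that run from 250 bases before to 50 bases after each gene's start. Of the 32 genes, 27 had a window, and 9 of these 27 (33.3%) held the letters, against 1215 of all 27025 genes (4.50%) and 1299 of 32851 windows (3.95%). The 32 were chosen by name from knowledge of the pathway, with earlier results of these data known. The higher share among them is therefore not a test of that knowledge. Cth, Eif4ebp1, Slc1a5, Slc7a3 and Slc7a5 had no window. The 9 genes with a match were Atf3, Chac1, Nupr1, Trib3, Asns, Pycr1, Slc1a4, Slc7a7 and Slc7a11. A match is a description of these letters, not a site, and genes without one are not shown to lack the element elsewhere. The 250 bases before the start of 6 of these genes follow, 5′ to 3′ on the gene's strand and with each match in capitals, because they cover all 3 roles and both orientations of the motif. They lie at chr7:126625471-126625720 on the minus strand (Nupr1), chr2:119350992-119351241 on the plus strand (Chac1), chr1:191183334-191183583 on the minus strand (Atf3), chr6:7693210-7693459 on the minus strand (Asns), chr14:54417945-54418194 on the minus strand (Slc7a7) and chr3:50443614-50443863 on the minus strand (Slc7a11).
Nupr1: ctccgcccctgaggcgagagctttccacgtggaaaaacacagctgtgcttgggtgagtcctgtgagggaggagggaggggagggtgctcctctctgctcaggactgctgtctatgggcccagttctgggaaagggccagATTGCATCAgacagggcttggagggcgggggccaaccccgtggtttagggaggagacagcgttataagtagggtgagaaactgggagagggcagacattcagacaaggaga
Chac1: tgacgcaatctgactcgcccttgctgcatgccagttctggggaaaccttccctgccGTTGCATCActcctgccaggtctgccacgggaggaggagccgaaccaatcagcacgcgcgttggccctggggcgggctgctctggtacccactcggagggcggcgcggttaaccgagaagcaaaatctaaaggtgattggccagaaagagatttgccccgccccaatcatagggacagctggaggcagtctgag
Atf3: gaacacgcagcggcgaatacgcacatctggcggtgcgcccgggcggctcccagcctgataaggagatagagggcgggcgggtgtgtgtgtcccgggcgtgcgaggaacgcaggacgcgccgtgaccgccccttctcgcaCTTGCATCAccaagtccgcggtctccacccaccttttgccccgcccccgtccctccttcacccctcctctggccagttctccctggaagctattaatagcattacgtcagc
Asns: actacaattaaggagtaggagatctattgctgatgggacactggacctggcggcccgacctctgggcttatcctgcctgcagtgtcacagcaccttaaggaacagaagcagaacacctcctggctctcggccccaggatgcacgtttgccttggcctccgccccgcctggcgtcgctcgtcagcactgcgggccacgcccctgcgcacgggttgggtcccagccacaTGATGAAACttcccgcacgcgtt
Slc7a7: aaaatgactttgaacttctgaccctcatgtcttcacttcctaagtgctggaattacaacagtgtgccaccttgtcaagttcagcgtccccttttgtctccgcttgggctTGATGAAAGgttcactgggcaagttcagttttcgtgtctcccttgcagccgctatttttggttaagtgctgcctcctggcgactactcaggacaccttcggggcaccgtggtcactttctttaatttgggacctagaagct
Slc7a11: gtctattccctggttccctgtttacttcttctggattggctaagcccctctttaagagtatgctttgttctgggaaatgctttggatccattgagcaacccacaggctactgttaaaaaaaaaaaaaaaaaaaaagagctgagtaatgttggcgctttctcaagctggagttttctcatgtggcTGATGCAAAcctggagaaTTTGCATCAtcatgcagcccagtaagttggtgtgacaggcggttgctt
In Nupr1 and Atf3 the match runs on the strand opposite to the gene and lies 111 to 103 bases before the start in both. Chac1 holds it 194 to 186 bases before the start, also on the opposite strand. In Asns it lies 23 to 15 bases before the start, and in this Slc7a7 window 141 to 133 bases before it, both on the gene's strand. Slc7a11 holds a match on each strand, at 66 to 58 and at 48 to 40 bases before the start.

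The values are MAS5 signals, linear brightness values with 1 signal per probe set and array. The median signal of an array lay between 19.5 and 32.8. Neurog1, the check of the labels, had signals of 11.4, 18.7 and 4.53 in uninduced cells, 756, 931 and 974 at 24 h, 1089, 1152 and 889 at 48 h, and 783, 679 and 465 at 72 h. Replicate 1 at 24 h stood apart from the rest: it correlated with the other arrays of its group at r of 0.804 to 0.826 over all genes tested, while arrays of the other groups correlated at 0.961 to 0.987 within their group. Its ratio of 3′ to 5′ signal for Pcx, an endogenous transcript with control probe sets at both ends, was 6.81, against 1.22 to 2.80 on the other 11 arrays. The same ratio for Gapdh did not stand apart, at 0.862 against 0.658 to 0.864 on the other 11 arrays. Where leaving out 24 h replicate 1 changed a call, or moved a value named here by over 1.5 times, the value without it is also given. It enters every comparison through the shared estimate of spread. Over 10 pluripotency markers the summed signal was 42901 to 48963 in uninduced cells, 21208 to 24958 at 24 h, 5813 to 8993 at 48 h and 5422 to 5625 at 72 h, and 0 to 2 of the 10 lay below the array's median. Over 12 neuronal markers it was 4286 to 5070 in uninduced cells, 2152 to 5961 at 24 h, 12287 to 18988 at 48 h and 32597 to 33786 at 72 h, and 0 to 5 of the 12 lay below it.

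Most of these genes had their highest level at 24 h and their lowest at 48 h or later. Of the 31 with a probe set, 24 had their highest group mean of log2(signal + 16) at 24 h (20 without 24 h replicate 1), 18 had their lowest at 48 h and 8 had it at 72 h. The like count over all genes was not made, so how unusual these counts are is not known. The largest falls at 48 and at 72 h against uninduced cells were those of Slc7a3 and Slc7a7, a pair of transporters for cationic amino acids, then Cth, an enzyme of cysteine synthesis, and Nupr1, a small stress-induced chromatin protein. Nupr1 and Atf5, a factor related to ATF4, were higher at 24 h than in uninduced cells and then went separate ways: by 72 h Nupr1 was lower than in uninduced cells and Atf5 higher. The Nupr1 call at 72 h was kept under every alternative run, and the Atf5 call at 72 h was lost under some, named below. Differences below are log2 differences ± SE on the log2(signal + 16) scale, from limma with 3 arrays a group, and a call means an adjusted p under 0.05 after Benjamini-Hochberg adjustment over all 12629 genes. These are bulk measurements, in which fewer cells of a type and less RNA per cell cannot be told apart.

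**Figure D1:**
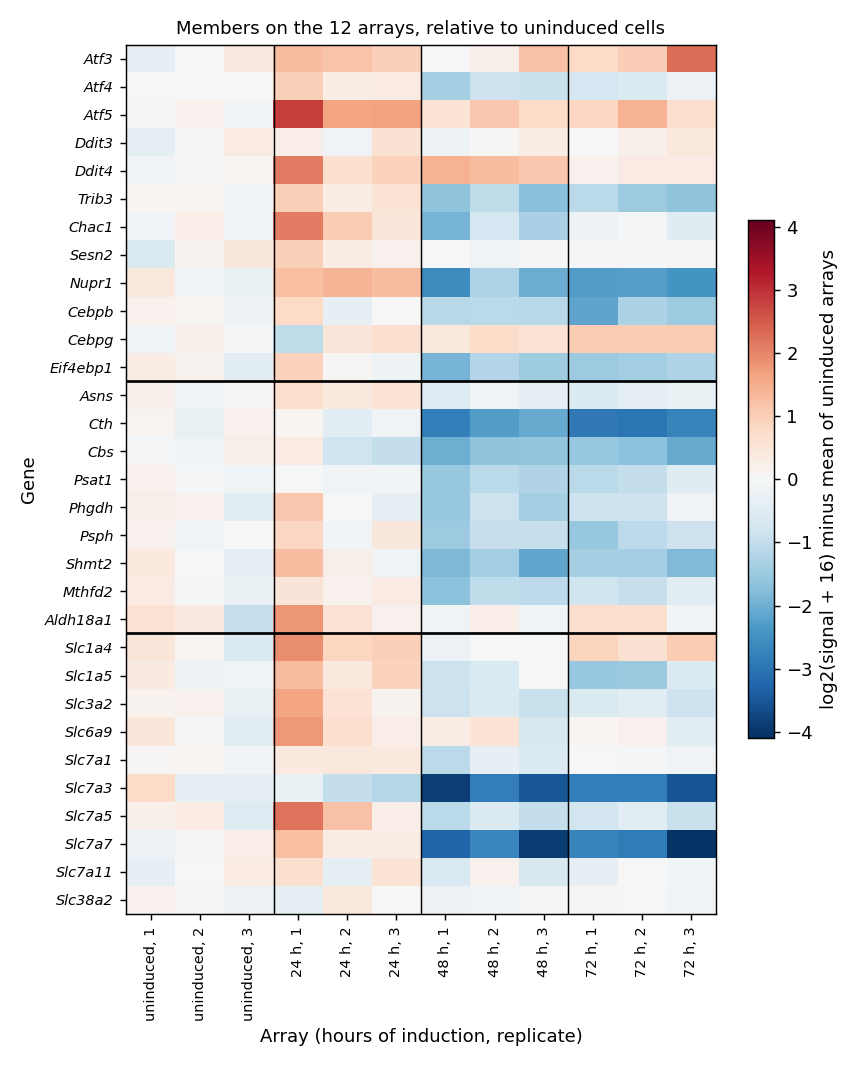
Each row is one of the 31 genes with a probe set and each column one of the 12 arrays; colour gives log2(signal + 16) minus the mean of the uninduced arrays, and black lines divide the 4 groups and the 3 roles. Rows are mostly red at 24 h and blue at 48 and 72 h, over a range of -4.02 to 2.84, with Ddit4, Cebpg, Atf3 and Atf5 red at later times.

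At 24 h against uninduced cells, 4 of the 30 genes tested were called higher, Atf5, Ddit4, Nupr1 and Slc1a4, and 0 lower, where 7.36% of all genes were called higher and 2.76% lower (10.1% in either direction). At an unadjusted p under 0.05 in limma 13 were higher and 0 lower. The share of all genes at an unadjusted p was not counted, here or below, so counts at that threshold have no background. The median difference of the 30 was 0.52, against 0.10 over all genes, and 0.35 against 0.08 without 24 h replicate 1. By role, the medians without that array were 0.51 for stress factors, 0.04 for synthesis enzymes and 0.43 for transporters. The mean of the enzymes relative to uninduced cells was 0.74 on 24 h replicate 1, and -0.016 and -0.023 on replicates 2 and 3. Ddit4 averaged 1797 ± 1049 at 24 h and 677 ± 63.3 in uninduced cells (SD, n = 3 each), a difference of 1.24 ± 0.31 (adjusted p = 0.0231 in limma). Chac1 and Slc7a5 had differences as large, 1.21 ± 0.39 and 1.23 ± 0.41, that missed the threshold (adjusted p = 0.0702 and 0.0775 in limma). Leaving out 24 h replicate 1 gave 0.76 ± 0.30 and 0.73 ± 0.29, also not called, and with a replicate block Slc7a5 was called. Without 24 h replicate 1, 6 genes were called higher and 2 lower, where 14.8% of all genes were higher and 8.19% lower. The added calls were Cebpg (0.58 ± 0.16) and Asns (0.48 ± 0.15) higher, and Cbs and Slc7a3 lower. The 4 calls made with all arrays held without it at smaller or like sizes, 1.63 ± 0.22 for Atf5, 0.80 ± 0.15 for Ddit4, 1.33 ± 0.31 for Nupr1 and 0.92 ± 0.26 for Slc1a4. With uninduced replicate 2 or 3 left out 1 gene was called higher, and with 24 h replicate 3 left out 7 were. Atf5 was the 1 call kept under every alternative run.

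At 48 h against uninduced cells 16 of the 30 genes were called lower and 1 higher, where 13% of all genes were lower and 21.1% higher (34.1% in either direction). The median difference of the 30 was -0.97, against 0.10 over all genes. With 24 h replicate 1 left out, 19 were lower and 3 higher, where 22.5% of all genes were lower and 31% higher. At 72 h against uninduced cells 13 were called lower and 4 higher, where 17.5% of all genes were lower and 23.8% higher (41.3% in either direction). The median of the 30 was -0.63, against 0.08 over all genes. The 4 higher were Atf3, Atf5, Cebpg and Slc1a4, and without 24 h replicate 1 the counts were 18 lower and 4 higher, where 26.6% of all genes were lower and 32.3% higher. Leaving out any 1 array of 72 h or uninduced cells brought the 4 down to 1, or to 2 without uninduced replicate 2. Of the genes, 12 were lower at both 48 and 72 h, 4 at 48 h alone (Atf4, Chac1, Phgdh and Slc7a1) and 1 at 72 h alone (Slc1a5). When 24 h replicate 1 was left out, Atf4 and Phgdh were also called lower at 72 h, and Asns, Slc3a2 and Slc7a5 at both times. These comparisons share the uninduced arrays, and a call at 1 time alone does not show that the times differ.

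In 48 h against 24 h cells, the second day of induction, 22 of the 30 genes tested were called lower and 0 higher, where 6.87% of all genes were called lower and 9.37% higher (16.2% in either direction). At an unadjusted p under 0.05 in limma the counts were the same, 22 lower and 0 higher, with no share of all genes counted. The median difference of the 30 was -1.36, against 0.01 over all genes tested, and -1.13 against 0.02 without 24 h replicate 1. By role, 7 of 12 stress factors, 8 of 9 enzymes and 7 of 9 transporters were called lower. Without 24 h replicate 1 the same 22 were called lower and 1 gene, Ddit4, was called higher at 0.47 ± 0.15, where 10.2% of all genes were lower and 12.9% higher. Of the 22, 16 were also called lower at 48 h against uninduced cells. The other 6, Atf5, Asns, Slc1a4, Slc1a5, Slc3a2 and Slc7a5, were not called there with all arrays. At 48 h against uninduced cells 4 of these 6 were called without 24 h replicate 1, Atf5 higher (0.83 ± 0.20) and Asns (-0.36 ± 0.13), Slc3a2 (-0.80 ± 0.17) and Slc7a5 (-0.90 ± 0.26) lower. Of the 22, 17 had a promoter window and 6 of these held the composite letters. Among genes tested and not called, 8 had a window and 1 of these 8 genes held them. Whether the letters go with a call was not tested, and these counts are too small to tell.

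**Figure D2:**
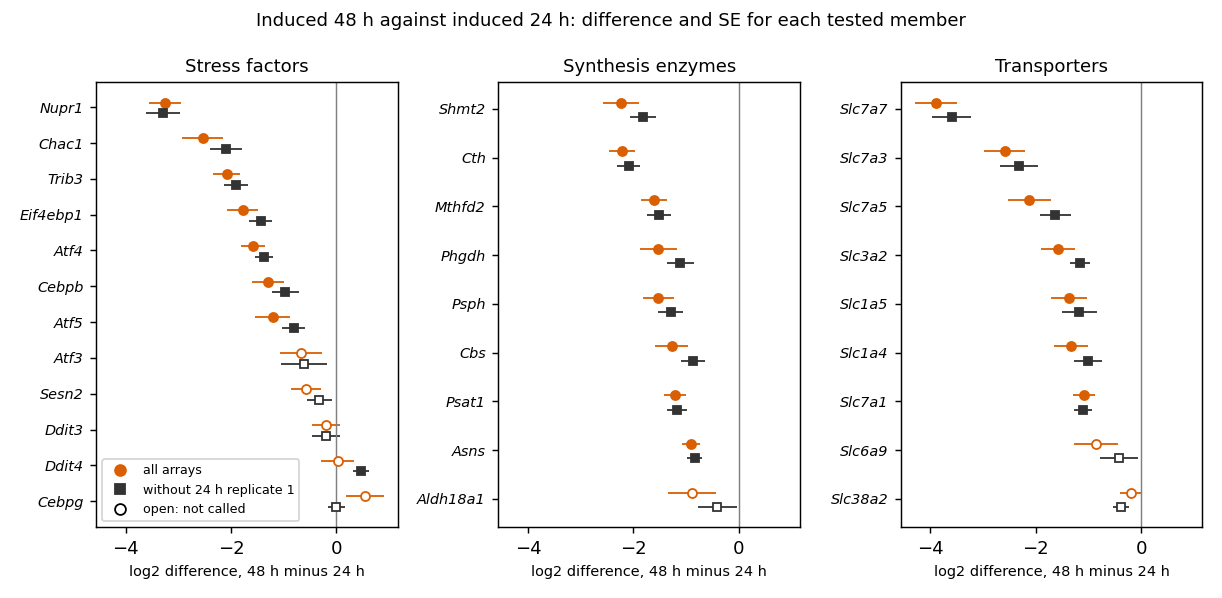
Points give the log2 difference of 48 h minus 24 h for each of the 30 genes tested, with bars of 1 SE, in 3 panels by role; round points use all arrays, squares leave out 24 h replicate 1, and open points were not called. With all arrays the points run from -3.90 for Slc7a7 to 0.54 for Cebpg, and 22 filled points lie left of 0.

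Between 72 h and 48 h cells 0 of the 30 genes were called in either direction, where 0.546% of all genes were called higher and 0.135% lower (0.681% in either direction). At an unadjusted p under 0.05 in limma 6 were higher and 1 lower, with no share of all genes counted at that threshold. The 2 largest positive differences were 1.06 ± 0.39 for Chac1 and 0.94 ± 0.32 for Slc1a4. Both were called higher without 24 h replicate 1, and Ddit4 was called lower, at -0.996 (SE 0.13).

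Among the stress factors, Atf4 itself was lower at 48 h than in uninduced cells. Its signals were 2224, 2242 and 2188 in uninduced cells, 4373, 2763 and 2819 at 24 h, 855, 1227 and 1168 at 48 h, and 1358, 1482 and 1890.0 at 72 h. All 3 arrays at 24 h lay above all 3 uninduced arrays, and all 6 arrays at 48 and 72 h lay below them. The Atf4 difference was 0.54 ± 0.23 at 24 h (adjusted p = 0.156), -1.04 ± 0.23 at 48 h (adjusted p = 0.0035) and -0.50 ± 0.23 at 72 h (adjusted p = 0.094) in limma. The 24 h value without replicate 1 was 0.33 ± 0.17, and without that array the 72 h value, of unchanged size, was called lower (adjusted p = 0.0119 in limma). Between 48 h and 24 h cells Atf4 fell by 1.58 (SE 0.23, adjusted p = 0.00057 in limma). The array reads transcript level, and ATF4 activity is also set by translation, which was not measured.

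Nupr1 had the largest swing of the stress factors. Its signals were 443, 288 and 265 in uninduced cells, 775, 876 and 797 at 24 h, 40.3, 125 and 67 at 48 h, and 53.1, 55.5 and 45.8 at 72 h. The 3 arrays at 24 h lay above every uninduced array, and the 6 later arrays below every uninduced array. It was called higher at 24 h (1.29 ± 0.31, adjusted p = 0.0198) and lower at 48 h (-1.96 ± 0.31, adjusted p = 0.00039) and 72 h (-2.34 ± 0.31, adjusted p = 7.27e-05), all against uninduced cells in limma. Between 48 h and 24 h cells the difference was -3.25 ± 0.31, and without 24 h replicate 1 it was -3.29 ± 0.31. Its promoter, printed above, is one of the 9 with the composite letters.

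Atf5, whose own translation is known to respond to eIF2alpha phosphorylation, was called higher at both ends of the time course. Its signals were 149.6, 180.5 and 146 in uninduced cells, 1231, 514 and 534 at 24 h, 241, 361 and 287 at 48 h, and 296, 453 and 272 at 72 h. Every induced array lay above every uninduced array, and 24 h replicate 1 was more than 2 times as bright as the other 24 h arrays. The Atf5 difference from uninduced cells was 2.03 ± 0.33 at 24 h (adjusted p = 0.00211), 0.83 ± 0.33 at 48 h (adjusted p = 0.0715) and 1.00 ± 0.33 at 72 h (adjusted p = 0.028) in limma. Without 24 h replicate 1 its 24 h difference was 1.63 ± 0.22 (adjusted p = 0.000224 in limma), and it was called higher at 48 h as well (adjusted p = 0.00315 in limma). The Atf5 call at 72 h was lost with quantile normalization, and without 72 h replicate 1 or 2 or uninduced replicate 1 or 3.

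Trib3 encodes a pseudokinase known to bind ATF4 and restrain it, and was called lower at 48 and at 72 h. Trib3 signals were 234, 237 and 196 in uninduced cells, 448, 280.1 and 331 at 24 h, 59.2, 98.4 and 57.1 at 48 h, and 95.5, 68.5 and 60.4 at 72 h. The groups at 48 and 72 h did not overlap with uninduced cells and lay below them. The Trib3 difference was -1.47 ± 0.26 at 48 h and -1.41 ± 0.26 at 72 h (adjusted p = 0.00085 and 0.000857 in limma).

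Cebpb, a C/EBP partner of ATF4, had signals of 184, 171 and 136 in uninduced cells, 302, 125 and 165 at 24 h, 64.9, 67 and 65.4 at 48 h, and 23.7, 56.3 and 49.7 at 72 h. Its 24 h and uninduced arrays overlapped, and the later 6 arrays all lay below both. It was called lower at 48 h (-1.13 ± 0.31) and at 72 h (-1.64 ± 0.31), with adjusted p of 0.0131 and 0.000999 in limma. Cebpg, which encodes a smaller C/EBP protein that also pairs with ATF4, went the other way. It averaged 465 ± 3.31 at 72 h and 219.7 ± 31.3 in uninduced cells (SD, n = 3 each), a difference of 1.04 ± 0.36 (adjusted p = 0.036 in limma). Its signals at 24 h were 97.5, 316 and 353, and the low one was replicate 1. Leaving out any 1 of the 6 arrays of this 72 h comparison ended the Cebpg call, while leaving out 24 h replicate 1 kept it, at an adjusted p of 3.37e-05 in limma, and added calls higher at 24 h (0.58 ± 0.16) and 48 h (0.58 ± 0.14).

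Eif4ebp1 encodes a repressor of cap-dependent translation. Its signals were 5226, 4707 and 3177 in uninduced cells, 8206, 4375 and 3717 at 24 h, 1134, 1844 and 1550.3 at 48 h, and 1509, 1567 and 1772 at 72 h. Uninduced and 24 h arrays overlapped, and the later 6 arrays lay far below both. It was called lower at 48 h (-1.52 ± 0.29, adjusted p = 0.0016 in limma) and 72 h (-1.40 ± 0.29, adjusted p = 0.00211 in limma). Another, dimmer probe set of Eif4ebp1 had the opposite sign in both comparisons, so its direction rests on the brighter probe set.

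Atf3, an early-response factor of the stress pathway, had uninduced signals near the floor. Its signals were 10.8, 17.6 and 27.6 in uninduced cells, 66, 60.3 and 50.3 at 24 h, 17.7, 23.2 and 61.6 at 48 h, and 42.9, 52.1 and 149 at 72 h. The 72 h arrays lay above the uninduced arrays, with replicate 3 well above the other 72 h arrays. It was called higher at 72 h (1.36 ± 0.40, adjusted p = 0.0151 in limma). Leaving out 72 h replicate 3 or uninduced replicate 1 ended that call.

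Ddit4 had signals of 2999, 1066 and 1326 at 24 h and Chac1 of 1119, 528 and 355, with replicate 1 above the other arrays in both. Ddit4 encodes an inhibitor of mTORC1 and was the 1 gene of the 30 called higher at 48 h against uninduced cells. It averaged 1657 ± 184 at 48 h and 677 ± 63.3 in uninduced cells (SD, n = 3 each), a difference of 1.27 ± 0.31 (adjusted p = 0.00681 in limma). At 72 h it averaged 821 ± 53.9, a difference of 0.27 ± 0.31 (adjusted p = 0.511 in limma). Chac1 encodes an enzyme that degrades glutathione. Its mean was 95.9 ± 46.1 at 48 h and 667 ± 401 at 24 h (SD, n = 3 each), a difference of -2.53 ± 0.39 (adjusted p = 0.000911 in limma). Against uninduced cells Chac1 was called lower at 48 h (-1.32 ± 0.39, adjusted p = 0.0193) but not at 72 h (-0.26 ± 0.39, adjusted p = 0.63) in limma. Ddit3, which encodes the factor CHOP, and Sesn2, a leucine-sensing inhibitor of mTORC1, were called in none of the 5 comparisons. Their largest differences were 0.24 ± 0.27 for Ddit3 at 24 h against uninduced cells and -0.57 ± 0.29 for Sesn2 in 48 h against 24 h cells, and the Sesn2 value was -0.33 ± 0.24 without 24 h replicate 1.

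Among the synthesis enzymes, 7 of 9 were called lower at 48 h against uninduced cells, 6 of 9 at 72 h, and 0 higher at either time. Of all genes 13% were lower and 21.1% higher at 48 h, and 17.5% and 23.8% at 72 h. At an unadjusted p under 0.05 in limma 7 of the 9 enzymes were lower at each time and 0 higher. No share of all genes was counted at that threshold. The median enzyme difference was -1.27 at 48 h and -0.86 at 72 h.

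Cth, which makes cysteine from cystathionine, fell the most of the enzymes. Cth signals were 2449, 1839.5 and 2553 in uninduced cells, 2412, 1639.7 and 2048 at 24 h, 309, 444 and 529 at 48 h, and 284, 268 and 328 at 72 h. Uninduced and 24 h arrays overlapped, and no later array came near them. Its difference was -0.17 ± 0.25 at 24 h, -2.39 ± 0.25 at 48 h (adjusted p = 1.48e-05 in limma) and -2.88 ± 0.25 at 72 h (adjusted p = 2.04e-06 in limma). Cbs makes the cystathionine that Cth uses. Its signals were 155, 146 and 198 in uninduced cells, 211, 86.6 and 75.8 at 24 h, 29.2, 41.2 and 42.8 at 48 h, and 45.6, 39.9 and 27.6 at 72 h. The later 6 arrays lay below all uninduced arrays, and 24 h replicate 1 was above both of the other 24 h arrays. Cbs was called lower at 48 h (-1.76 ± 0.32) and 72 h (-1.77 ± 0.32), with adjusted p of 0.000961 and 0.000698 in limma. At 24 h it was not called with all arrays (-0.49 ± 0.32, adjusted p = 0.367) and called lower without replicate 1 (-0.90 ± 0.23, adjusted p = 0.0134) in limma.

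Phgdh, Psat1 and Psph catalyse the consecutive steps from a glycolytic intermediate to serine. Phgdh signals were 1866, 1779 and 1174 in uninduced cells, 3385, 1578 and 1257 at 24 h, 520.3, 847 and 609 at 48 h, and 866, 861 and 1434 at 72 h. The 48 h arrays lay below all others of the uninduced and 24 h groups, and the 72 h arrays overlapped with uninduced cells. The Phgdh difference was -1.26 ± 0.36 at 48 h (adjusted p = 0.0156 in limma) and -0.61 ± 0.36 at 72 h (adjusted p = 0.193 in limma). Phgdh was also called lower at 72 h, at an unchanged size, without 24 h replicate 1 (adjusted p = 0.0386 in limma). Psat1 signals were 3886, 3289 and 3099.9 in uninduced cells, 3341, 3076 and 3134 at 24 h, 1149, 1561 and 1425 at 48 h, and 1563, 1734 and 2433 at 72 h. Arrays at 48 and 72 h lay below all the earlier ones, and the 3 arrays at 72 h were each above the brightest at 48 h. Psat1 was called lower at 48 h (-1.31 ± 0.20, adjusted p = 0.000325 in limma) and at 72 h (-0.86 ± 0.20, adjusted p = 0.00438 in limma). Psph averaged 393 ± 85 at 48 h and 386 ± 96.7 at 72 h, against 867 ± 101 in uninduced cells (SD, n = 3 each). It was called lower at both times, at -1.13 ± 0.29 and -1.16 ± 0.29.

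Shmt2 and Mthfd2 carry serine-derived carbon through the mitochondrial folate pathway. Shmt2 signals were 1802, 1339.6 and 1058 in uninduced cells, 3316, 1601 and 1237 at 24 h, 369.9, 514 and 301 at 48 h, and 519, 507 and 381 at 72 h. No array at 48 or 72 h reached the uninduced arrays. The Shmt2 difference was -1.78 ± 0.35 at 48 h and -1.52 ± 0.35 at 72 h (adjusted p = 0.00167 and 0.00357 in limma). Mthfd2 signals were 993, 741 and 639.7 in uninduced cells, 1122, 884 and 979.9 at 24 h, 231, 370.1 and 361 at 48 h, and 436, 397 and 562 at 72 h. The 48 h arrays were the lowest of the 4 groups, and each 72 h array lay between them and the uninduced arrays. Mthfd2 was called lower at 48 h (-1.27 ± 0.25, adjusted p = 0.0021 in limma) and 72 h (-0.74 ± 0.25, adjusted p = 0.0336 in limma). Its 72 h call was lost on leaving out uninduced replicate 1 or 2 or 72 h replicate 1 or 2, and with the mean of all its probe sets.

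Asns, which makes asparagine and is a classic ATF4 target, had a smaller difference in 48 h against 24 h cells than the other enzymes called there. It averaged 2565 ± 306 at 48 h and 4841 ± 501 at 24 h (SD, n = 3 each), and fell by 0.91 (SE 0.17, adjusted p = 0.00294 in limma) between them. Against uninduced cells Asns was called at no time with all arrays, with differences of 0.56 ± 0.17, -0.36 ± 0.17 and -0.40 ± 0.17 at 24, 48 and 72 h. All 3 were called without 24 h replicate 1 in limma, the first higher at 0.48 ± 0.15 and the others lower (adjusted p = 0.0327, 0.0348 and 0.0182). Aldh18a1, the first enzyme of proline synthesis, was called in none of the 5 comparisons. In 48 h against 24 h cells its difference was -0.89 ± 0.46 with all arrays and -0.41 ± 0.37 without 24 h replicate 1.

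The transporters divided into a pair of cationic amino acid carriers with differences beyond -3 at 48 h and others with smaller ones. Against uninduced cells 3 of 9 were called lower at 48 h and 3 of 9 at 72 h, while 0 were called higher at 48 h and 1 at 72 h. Of all genes 13% were lower and 21.1% higher at 48 h, and 17.5% and 23.8% at 72 h. At an unadjusted p under 0.05 in limma, 5 of the 9 transporters were lower and 0 higher at 48 h, and 3 lower and 1 higher at 72 h. No share of all genes was counted at that threshold.

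Slc7a3, an arginine and lysine transporter, had signals of 4242, 1887 and 1842 in uninduced cells, 2041, 1233 and 1077 at 24 h, 154, 334 and 199 at 48 h, and 332, 332 and 197 at 72 h. The later 6 arrays lay far below the first 6, and uninduced replicate 1 was more than 2 times as bright as the other uninduced arrays. Its difference was -3.40 ± 0.39 at 48 h (adjusted p = 3.30e-05 in limma) and -3.06 ± 0.39 at 72 h (adjusted p = 5.03e-05 in limma), and at 24 h it was -0.81 ± 0.39 with all arrays and -1.08 ± 0.36 without replicate 1 (adjusted p = 0.218 and 0.0464 in limma). Slc7a7 encodes a light chain that exchanges cationic for neutral amino acids. Its signals were 607, 671 and 844 in uninduced cells, 1663, 869 and 877 at 24 h, 57.5, 96 and 32.2 at 48 h, and 92.5, 81.8 and 28.2 at 72 h. The 24 h arrays lay above the uninduced arrays, and the later 6 arrays lay below them by a wide margin. The Slc7a7 difference was -3.29 ± 0.40 at 48 h (adjusted p = 5.40e-05 in limma) and -3.21 ± 0.40 at 72 h (adjusted p = 4.40e-05 in limma). Between 48 h and 24 h cells it was -3.90 ± 0.40, the largest difference of the 30 genes tested, and its promoter above holds the composite letters.

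Slc7a1, the widely expressed transporter of the same cationic family, had smaller differences. Its signals were 1161, 1189 and 1056 in uninduced cells, 1486, 1545 and 1515 at 24 h, 525, 888 and 744 at 48 h, and 1132, 1099 and 1026 at 72 h. Its 48 h arrays lay below the uninduced arrays and its 72 h arrays overlapped with them. Slc7a1 was called lower at 48 h (-0.68 ± 0.21, adjusted p = 0.0236 in limma) and not at 72 h (-0.06 ± 0.21, adjusted p = 0.833 in limma). Another probe set of Slc7a1 had the opposite sign in 48 h against 24 h cells.

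Slc1a4 and Slc1a5 carry neutral amino acids, Slc1a5 being known for glutamine. Slc1a4 signals were 144, 104 and 60.4 in uninduced cells, 408, 193 and 206 at 24 h, 79.4, 95.9 and 98.1 at 48 h, and 197, 158 and 218 at 72 h. Its 24 and 72 h arrays all lay above the uninduced arrays, and its 48 h arrays fell within their range. The Slc1a4 difference was 1.25 ± 0.32 at 24 h (adjusted p = 0.0263 in limma), -0.09 ± 0.32 at 48 h and 0.86 ± 0.32 at 72 h (adjusted p = 0.0476 in limma). The 72 h call was lost with pseudocount 64, with no filter on dim probe sets, with quantile normalization, and without any 1 array of 48 or 72 h or uninduced replicate 2 or 3. Slc1a5 signals were 171, 111 and 116 in uninduced cells, 339, 177 and 267 at 24 h, 64.2, 79.3 and 129 at 48 h, and 33.8, 35.1 and 82.8 at 72 h. Its 72 h arrays lay below the uninduced arrays and its 24 h arrays above them. Slc1a5 was called lower at 72 h alone against uninduced cells (-1.21 ± 0.34, adjusted p = 0.0118 in limma). That call was lost with the mean of its probe sets, and without uninduced replicate 1 or 72 h replicate 1 or 2.

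Slc3a2 and Slc7a5 encode the heavy and light chains of a leucine exchanger. Slc7a5 averaged 249 ± 50.9 at 48 h and 1313 ± 863 at 24 h, and Slc3a2 averaged 809 ± 105 at 48 h and 2695 ± 1503 at 24 h (SD, n = 3 each). The wide spread at 24 h came with replicate 1, which gave 2262 for Slc7a5 and 4396 for Slc3a2. Both were called lower in 48 h against 24 h cells, Slc7a5 at -2.13 ± 0.41 and Slc3a2 at -1.58 ± 0.32 (adjusted p = 0.00361 and 0.00475 in limma). Without 24 h replicate 1 these differences were -1.63 ± 0.29 and -1.16 ± 0.19, both still called. Against uninduced cells neither was called at any time with all arrays. Both were called lower without 24 h replicate 1, at 48 h (adjusted p = 0.0106 for Slc7a5 and 0.0016 for Slc3a2) and 72 h (adjusted p = 0.0324 and 0.00592) in limma. Slc6a9, a glycine transporter, and Slc38a2, a sodium-coupled neutral amino acid transporter known to respond to amino acid shortage, were called in none of the 5 comparisons. The Slc6a9 difference at 24 h against uninduced cells was 0.91 ± 0.42 with all arrays and 0.48 ± 0.36 without replicate 1. Slc38a2 differences lay between -0.19 and 0.12 in all 5, and between -0.39 and 0.22 without that array. Slc7a11 stayed dim on every array, with signals of 5.07, 11.3 and 17.6 in uninduced cells, 26.5, 4.19 and 23.5 at 24 h, 1.46, 14.5 and 1.01 at 48 h, and 5.23, 10.8 and 8.74 at 72 h.

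**Figure D3:**
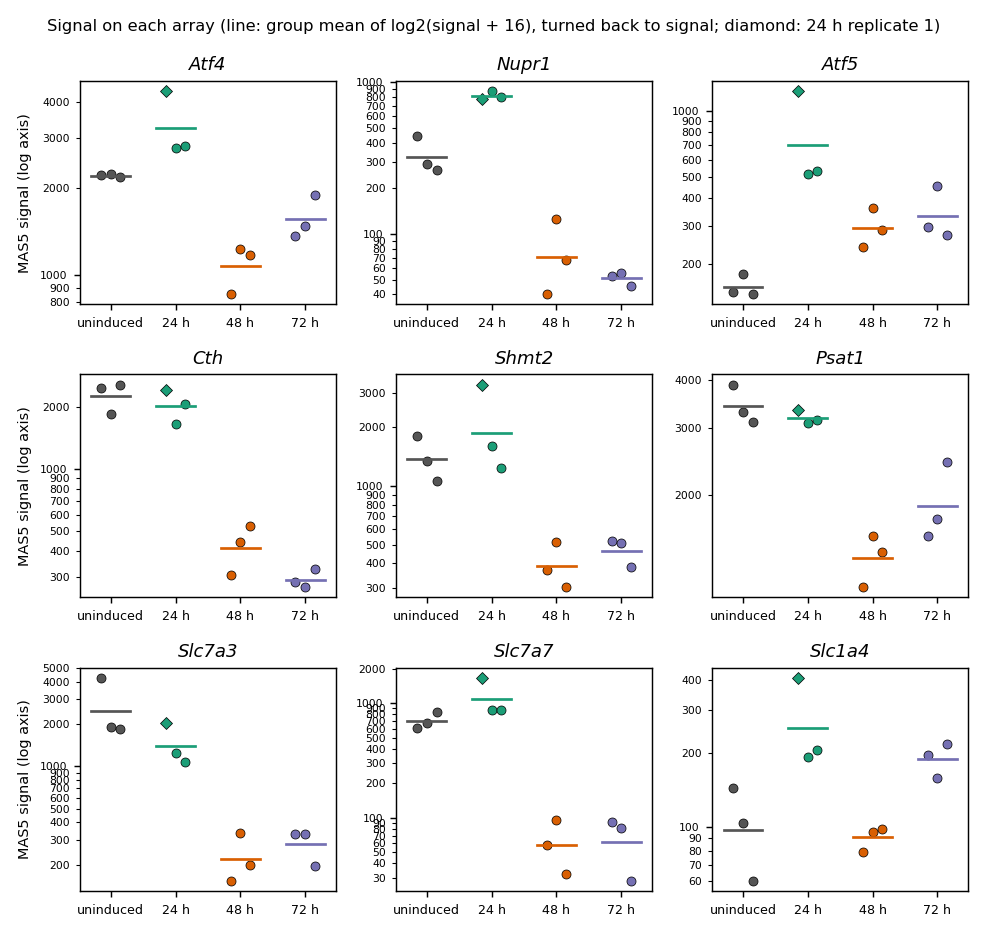
Signals on a log axis for 9 genes, 3 of each role, at each time, with 1 point per array and a line at the group mean of log2(signal + 16), turned back to signal; the diamond is 24 h replicate 1. Cth, Slc7a3 and Slc7a7 drop at 48 h and stay low, Nupr1 peaks at 24 h, Atf5 stays above its uninduced level, and Slc1a4 is high at 24 and 72 h.

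Other genes of the pathway gave a setting for these values. Among 18 aminoacyl-tRNA synthetases, 11 were called lower at 48 h against uninduced cells and 0 higher. Synthetases charge tRNAs and are known ATF4 targets in part. Of all genes 13% were called lower at 48 h and 21.1% higher. At an unadjusted p under 0.05 in limma 13 of the 18 synthetases were lower and 0 higher, with no share of all genes counted. The largest falls were Cars (-1.43 ± 0.25), Farsb (-1.34 ± 0.22) and Nars (-1.29 ± 0.30). At 24 h against uninduced cells 3 of the 18 synthetases were already lower and 0 higher. Their median there was -0.31, beside 0.52 for the 30 genes. Of all genes 2.76% were lower at 24 h and 7.36% higher. Without 24 h replicate 1 the counts at 24 h were 7 lower and 0 higher, with a median of -0.46. Of all genes 8.19% were then lower and 14.8% higher. The synthetase median at 48 h against 24 h was -0.50, beside -1.36 for the 30 genes, and 5 of 18 were lower, where 6.87% of all genes were. The largest of these 5 falls were Aars (-1.45 ± 0.35), Cars (-1.31 ± 0.25) and Sars (-0.92 ± 0.28). The median without 24 h replicate 1 was -0.43 and 9 were lower, led by Cars (-1.23 ± 0.23), Nars (-1.12 ± 0.18) and Aars (-0.97 ± 0.20), with Sars at -0.55 ± 0.16. At 48 h against uninduced cells 17 were lower without that array. Of all genes 22.5% were lower there, and 10.2% in 48 h against 24 h. Of 12 other genes of serine, glycine and one-carbon metabolism, 6 were lower at 48 h against uninduced cells and 1 higher. Shmt1, the cytosolic counterpart of Shmt2, was at -2.13 ± 0.27, and Mthfd1 at -1.22 ± 0.24 and Mthfd1l at -1.16 ± 0.24. Mthfd2l, the paralog of Mthfd2, was the one that rose (1.75 ± 0.27, adjusted p = 0.000357 in limma).

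Among 19 other amino acid enzymes, 7 were lower at 48 h against uninduced cells and 0 higher, with the same counts at an unadjusted p under 0.05 in limma. Bcat2, which transaminates branched-chain amino acids, was at -2.16 ± 0.45, Got1, an aspartate transaminase, at -1.93 ± 0.23 and Glud1, glutamate dehydrogenase, at -1.41 ± 0.19. Other amino acid transporters were mixed, with 5 of 23 higher and 5 lower at 48 h against uninduced cells (21.7% each), where 21.1% of all genes were higher and 13% lower. Slc1a2, the glutamate transporter known from astrocytes and also found in neurons, rose by 4.73 ± 0.42, and Slc6a15, a neutral amino acid transporter, was at -1.80 ± 0.47. Slc43a1, a transporter of large neutral amino acids, rose at 24 h by 2.24 ± 0.22 (adjusted p = 6.69e-05 in limma), and Slc1a2 by 1.58 ± 0.42. Without that day's replicate 1 these were 2.12 ± 0.21 and 2.21 ± 0.22.

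Of 7 genes for the eIF2 kinases and their feedback, 0 were called at 48 h against uninduced cells, and 2 were lower and 0 higher at an unadjusted p under 0.05 in limma. The counts without 24 h replicate 1 were 4 lower and 1 higher, where 22.5% of all genes were lower and 31% higher. In 48 h against 24 h cells 1 of the 7 was lower, Ppp1r15a, which recruits a phosphatase to eIF2alpha (-0.81 ± 0.25, adjusted p = 0.0418 in limma, and -0.58 ± 0.19 without 24 h replicate 1). Of 18 genes of the other arms of the unfolded protein response, 2 were called higher at 48 h against uninduced cells, Edem1 (1.20 ± 0.24) and Sel1l (0.94 ± 0.22), which act in the disposal of misfolded protein, and 1 lower, Creld2 (-0.86 ± 0.21). These shares, 11.1% and 5.56%, are below the 21.1% and 13% of all genes. Without 24 h replicate 1, 6 of 18 were higher and 2 lower, beside 31% and 22.5% of all genes. Of 16 genes of amino acid sensing by mTORC1, 3 were higher at 48 h against uninduced cells, Rragd (2.08 ± 0.32), Sesn3 (2.04 ± 0.58) and Tsc1 (1.34 ± 0.28), and 0 lower, with 5 higher and 0 lower at an unadjusted p under 0.05 in limma. The 18.8% higher is below the 21.1% of all genes. Without 24 h replicate 1, 5 of 16 were higher and 1 lower, beside 31% and 22.5% of all genes.

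**Figure D4:**
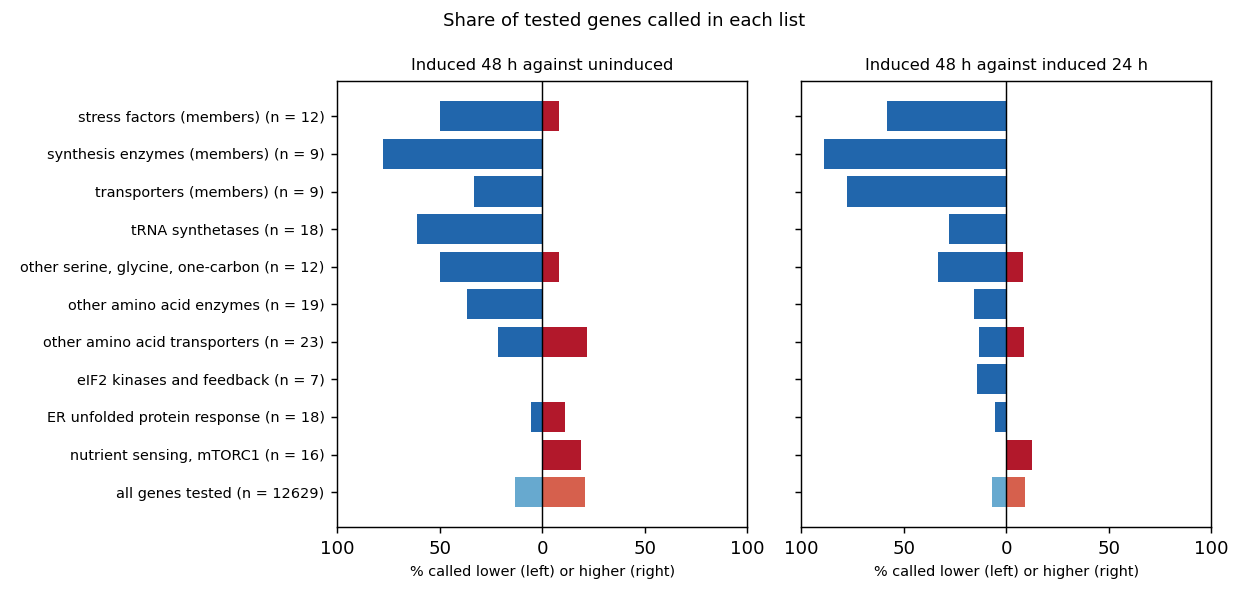
Bars give the share of tested genes called lower (left, blue) or higher (right, red) in each list, with the number tested beside its name, for 48 h against uninduced cells and 48 h against 24 h cells; the last bar gives all genes tested. The synthesis enzymes have the longest left bars in both panels, 77.8% and 88.9%, and all genes tested stand at 13% and 6.87%.

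Markers of other states and cells moved over the same arrays. All 10 pluripotency markers were called lower at 48 h against uninduced cells, and 11 of 12 neuronal markers higher. Of all genes 13% were lower there and 21.1% higher. In 48 h against 24 h cells, 6 of the 10 pluripotency markers were lower and all 12 neuronal markers higher, where 6.87% of all genes were lower and 9.37% higher. Genes of handling stress (heat shock and immediate early genes) fell in 6 of 11 cases at 48 h against uninduced cells, with Hspb1 at -4.14 ± 0.33, while Jun rose by 2.45 ± 0.35. Their summed signal was 11919 to 14674 in uninduced cells, 6432 to 9911 at 24 h, 3357 to 4043 at 48 h and 3454 to 4857 at 72 h. Over 10 endoderm markers the sum was 144 to 302 in uninduced cells and 178 to 464, 349 to 788 and 386 to 1238 at 24, 48 and 72 h, with 2 to 7 of the 10 below the array's median signal. Over 10 fibroblast markers it was 144 to 200.2 in uninduced cells and 136 to 300.3, 195 to 299 and 156 to 397 at 24, 48 and 72 h, with 5 to 9 below it. Over 10 trophoblast markers it was 628 to 1540 in uninduced cells and 1129 to 3782, 475 to 687 and 568 to 812 at 24, 48 and 72 h, with 2 to 6 below it. Over 9 glial markers it was 182 to 216 in uninduced cells and 327 to 572, 379 to 1461 and 738 to 2186 at 24, 48 and 72 h, with 4 to 7 below it. Their part in the differences of the 32 genes was not tested.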

How the data were processed

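Total RNA of the 12 samples (Trizol) was turned into biotinylated cRNA by Affymetrix protocols and hybridised, per the labels' protocols. The authors deposited linear intensity, 1 MAS5 signal for each probe set, per the submitters' processing notes. The MAS5 settings are not given in the sources. Of 45101 probe sets, 34945 had 1 gene symbol in the platform annotation, 932 had several and 9160 none, and 64 were controls. All 66 probe sets of the 32 genes were matched by Entrez identifier to the RefSeq gene table of GRCm38.p6, and 0 symbols changed.

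From the deposited signals log2(signal + 16) was computed, which understates changes of dim genes. The authors' scaling was kept. Per gene the probe set with the highest mean over the 12 arrays was used, and a gene entered the test if that probe set was above percentile 50 of the array's signals on 3 or more of the 12 arrays. All arrays went into one model of 4 groups in limma 3.58.1 (R 4.3.3; lmFit, contrasts.fit, eBayes with trend), with 5 two-sided contrasts and Benjamini-Hochberg adjustment over the 12629 genes tested. The fit was tested on simulated data.

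The labels call the arrays biological replicates. They do not say which cultures they came from, so p-values measure the spread between these arrays. Their number limits the precision. The 32 genes, the other lists, the tests and the alternatives were chosen with earlier results of these data known. All 32 could be named. Values on every array are given for Atf4 and for genes called against uninduced cells, by size of difference and up to 6 per role. A few others (Slc7a11 and single arrays of Cebpg, Slc7a5 and Slc3a2) are given because the text turns on them. Of other lists up to 3 rises and 3 falls per comparison could be named. Alternatives were pseudocounts 1 and 64, no filter or percentile 75, the mean of all probe sets, quantile normalization, array weights, only the 2 groups compared, a replicate block, and each array left out.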

Additional observations from a re-analysis of the deposited data

Results flagged for a closer look

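In 22 of the 30 genes the difference from uninduced cells at 48 h differed from that at 24 h by a direct test of 48 h against 24 h (limma, adjusted p under 0.05), and all 22 were lower at 48 h. The values, as log2 difference of 48 h minus 24 h, were as follows. Among stress factors they were -3.25 for Nupr1, -2.53 for Chac1, -2.08 for Trib3, -1.78 for Eif4ebp1, -1.58 for Atf4, -1.30 for Cebpb and -1.21 for Atf5. Among synthesis enzymes they were -2.23 for Shmt2, -2.22 for Cth, -1.61 for Mthfd2, -1.52 for Phgdh, -1.52 for Psph, -1.27 for Cbs, -1.21 for Psat1 and -0.91 for Asns. Among transporters they were -3.90 for Slc7a7, -2.59 for Slc7a3, -2.13 for Slc7a5, -1.58 for Slc3a2, -1.38 for Slc1a5, -1.34 for Slc1a4 and -1.09 for Slc7a1. Of the 22 genes, 15 kept their call under all alternatives run, and the other 7, Atf5, Cebpb, Cbs, Phgdh, Slc1a4, Slc1a5 and Slc7a1, lost it when the 2 groups were fitted alone. Atf5, Cbs, Phgdh, Slc1a4 and Slc1a5 also lost it without 48 h replicate 1. So did Atf5 without 48 h replicate 3 and Slc1a5 without 48 h replicate 2.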

How the results depend on the processing

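Over the 30 genes, 0 differences that were called changed sign under any alternative run. Counts of the 30 called lower stayed within 1.5 times of their values under each alternative in 48 h against 24 h (22, and 15 with only the 2 groups compared), 48 h against uninduced (16, and 19 with only the 2 groups compared) and 72 h against uninduced (13). With only the 2 groups compared, which leaves fewer arrays to estimate the spread, the count called higher was 1 at 24 h and 3 at 48 h against uninduced cells, and in 72 h against 48 h cells it was 1 higher and 1 lower. With array weights, which gave 24 h replicate 1 a weight of 0.0532 and whose estimate stopped before its convergence tolerance, 1 was lower at 24 h, 3 were higher at 48 h against uninduced cells, 1 was higher in 48 h against 24 h, and 6 were higher and 3 lower in 72 h against 48 h. With quantile normalization 1 was higher at 72 h. It also moved the median of all genes from 0.10 to -0.04 at 48 h and from 0.08 to -0.09 at 72 h against uninduced cells, and from 0.01 to -0.10 in 48 h against 24 h, and the share of all calls that were higher from 57.7% to 45.8% in 48 h against 24 h. Genes called over the whole table numbered 1279 at 24 h, 4306 at 48 h and 5213 at 72 h against uninduced cells, 2050 in 48 h against 24 h and 86 in 72 h against 48 h. Array weights gave 2231, 6939, 8174, 3246 and 2381 in that order. Fitting only the 2 groups gave 337 at 24 h, 6475 at 48 h, 981 in 48 h against 24 h and 421 in 72 h against 48 h. In 72 h against 48 h pseudocount 1 gave 19, pseudocount 64 gave 226, percentile 75 gave 50 and the mean of all probe sets gave 144. The cause of these changes was otherwise not tested.

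With each array left out in turn, at 24 h against uninduced cells 1 to 7 of the 30 were higher, 0 to 2 lower, and 668 to 2900 genes called. At 48 h 1 to 3 were higher, 12 to 19 lower, and 3173 to 6750 genes called. At 72 h 1 to 4 were higher, 11 to 18 lower, and 4039 to 7432 genes called. In 48 h against 24 h 0 to 1 were higher, 17 to 22 lower, and 1129 to 2925 genes called. In 72 h against 48 h 0 to 2 were higher, 0 to 1 lower, and 25 to 469 genes called. The highest count of all genes came in each comparison without 24 h replicate 1. As a replicate block, the replicate number gave 6 higher and 0 lower (1621 genes) at 24 h, 1 and 17 (4712) at 48 h and 4 and 13 (5668) at 72 h against uninduced cells, 0 and 23 (2445) in 48 h against 24 h, where the added call was Slc6a9, and 0 and 0 (91) in 72 h against 48 h. Same-numbered arrays correlated in their deviations from the group means at 0.05 to 0.57, over 0.1 in 16 of 18 pairs, and 33 of 36 array and group combinations matched best at their own number, a hint from the data and not from the design. Signal over background limits Slc7a11 and Atf3, whose values lie near the floor. Some late arrays of Cebpb, Cbs, Slc1a5 and Slc7a7 also came near or below the array's median signal, which limits the size of their falls.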
